A study of Mus musculus with 6 samples.

Results

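Ephrins are membrane-bound ligands and Eph receptors are the tyrosine kinases that bind them on neighbouring cells, so that contact between 2 cells can signal into both. Ephrin-A ligands are held to the membrane by a lipid anchor and mostly bind EphA receptors, while ephrin-B ligands cross the membrane and mostly bind EphB receptors. In blood vessels, ephrin-B2 (Efnb2) is a classical arterial gene and EphB4 (Ephb4), its receptor, a classical venous gene, and the pair is also used in lymphatic vessels. The 9 genes described here are 3 ligands (Efna1, Efnb1 and Efnb2) and 6 receptors (Epha2, Epha4, Ephb1, Ephb2, Ephb3 and Ephb4), taken by gene symbol from the 24421 genes of the count table. They are 9 of the 22 ephrin and Eph receptor genes counted.

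Expression was measured by RNA-seq in 6 libraries, 1 for each condition. Blood endothelial cells (BECs) came from E15.5 mouse embryo skin, either Tie2-Cre(−); Dot1l 2f/2f (Cont) or Tie2-Cre(+); Dot1l 2f/2f (cKO). Both genotypes carry the floxed alleles, the labels call the control wild type, and RNA of 2 to 3 embryos was pooled per library. Tie2-Cre is active in endothelium and also in blood cells. The sort left out F4/80+, CD45+ and Lyve1+ cells. By a figure legend of the study it also took cells positive for a blood endothelial marker, a step its methods do not describe. Cultured BECs of a yolk sac line (CRL-2581) and cultured embryonic dermal lymphatic endothelial cells (LECs, C57-6064L) received a lentivirus that directs dCas9-VP64, a transcriptional activator, to the Dot1l promoter (OE-BECs, OE-LECs) or empty lentivirus (Cont), and GFP+ cells of 2 to 3 flasks made 1 library. With 1 library per condition, no difference has a replicate check, and every comparison is between libraries.

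Total counts ran from 8863349 reads (Cont BECs, skin) to 31032461 reads (OE-LECs). Dot1l had 112 CPM (reads per 1000000 of the library) in cultured Cont BECs against 302 in OE-BECs, and 95.3 in Cont LECs against 216.5 in OE-LECs. In skin it had 86.0 CPM in Cont against 85.2 in the cKO-labelled one. Counts over the whole gene do not separate its floxed part and so do not test the deletion. All 12 endothelial markers were above 3 reads in every library. The skin libraries also held all 12 macrophage markers (summed 3764 CPM in Cont and 5873 in cKO), all 12 fibroblast and pericyte markers (3240 and 2439 CPM) and Lyve1 (1027 and 1801 CPM). In the cultured libraries the fibroblast and pericyte markers summed to between 5.03 and 24.0 CPM. Prox1, which defines lymphatic identity, had 0 reads in the LEC libraries and in the cultured BEC libraries alike. In skin it had 147 CPM in Cont and 79.7 CPM in the cKO-labelled library. Lyve1 had 604 CPM in cultured Cont BECs and 1061 in OE-BECs, and 1998 in Cont LECs and 1962 in OE-LECs. Of 8 lymphatic markers, 3 were above 3 reads in Cont LECs (2154 CPM summed) and 4 in cultured Cont BECs (830 CPM).

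Ephb4 was the most abundant of the 9 genes by reads in 5 of the 6 libraries, and Efnb2 in skin Cont BECs. Ephb4 had 161 CPM in skin Cont BECs and 160.0 in the cKO-labelled library, 578 in cultured Cont BECs and 391 in OE-BECs, and in the LEC line 404 in Cont and 315 in OE-LECs. The 4 cultured libraries were all above the skin libraries, which did not differ from each other beyond their 95% counting intervals (153 to 170 and 153 to 168 CPM). The intervals of OE-BECs (381 to 402) and Cont LECs (396 to 412) also overlapped. These intervals cover counting error only, since each condition has 1 library. Amplified reads were counted with no identifier for each starting molecule, so the intervals may understate even that error.

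Efnb2 ran in another order. It had 269.9 CPM in skin Cont BECs, 156 in the cKO-labelled library, 202 in cultured Cont BECs and 87.3 in OE-BECs, and in the LEC line 82.55 in Cont and 105 in OE-LECs. The highest was thus a skin library, and the neighbours OE-BECs and Cont LECs had overlapping intervals (82.4 to 92.3 and 79.1 to 86.1 CPM).

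In mm10, by GENCODE M21, the ligand genes are protein-coding genes at chr3:89271733-89281142 (Efna1, minus strand), chrX:99136130-99148991 (Efnb1, plus) and chr8:8617434-8661242 (Efnb2, minus), each with 5 exons in its longest transcript. The receptor genes lie at chr4:141301240-141329384 (Epha2, plus), chr1:77367185-77515088 (Epha4, minus), chr9:101922128-102354693 (Ephb1, minus), chr4:136647539-136835988 (Ephb2, minus), chr16:21204755-21223305 (Ephb3, plus) and chr5:137350109-137378669 (Ephb4, plus), with 16 to 18 exons. Counts are per gene, so isoforms were not separated.

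The sequences before the start sites of 4 genes are shown: Efnb2 and Ephb4, the arterial and venous pair, and Epha2 and Epha4, the A-class receptors among the 9 genes. Each is the 250 bases before the RefSeq start in GRCm38.p6, on the strand of the gene. Capitals mark matches, on either strand, to GGGCGG (a GC box), CCAAT, TGACGTCA (the cAMP response element), TATAAA or TGGGAA (the core bound by the Notch effector RBPJ), none of which is part of another.
Efnb2, chr8:8661243-8661492, minus strand: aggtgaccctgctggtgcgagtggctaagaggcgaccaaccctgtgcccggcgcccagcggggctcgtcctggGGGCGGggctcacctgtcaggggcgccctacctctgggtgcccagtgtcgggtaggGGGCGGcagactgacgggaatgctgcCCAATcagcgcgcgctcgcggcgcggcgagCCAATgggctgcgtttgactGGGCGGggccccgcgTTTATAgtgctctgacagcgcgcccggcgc
Ephb4, chr5:137349859-137350108, plus strand: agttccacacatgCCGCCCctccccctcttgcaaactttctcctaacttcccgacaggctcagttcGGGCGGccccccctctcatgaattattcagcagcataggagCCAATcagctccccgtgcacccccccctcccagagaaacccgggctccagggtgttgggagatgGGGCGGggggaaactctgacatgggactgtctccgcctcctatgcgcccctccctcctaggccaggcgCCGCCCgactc
Epha2, chr4:141300971-141301220, plus strand: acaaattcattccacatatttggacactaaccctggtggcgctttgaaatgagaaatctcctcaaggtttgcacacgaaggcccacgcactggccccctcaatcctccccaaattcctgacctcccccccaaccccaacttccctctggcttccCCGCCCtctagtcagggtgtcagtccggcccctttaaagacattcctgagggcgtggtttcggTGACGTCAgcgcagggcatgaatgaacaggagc
Epha4, chr1:77515089-77515338, minus strand: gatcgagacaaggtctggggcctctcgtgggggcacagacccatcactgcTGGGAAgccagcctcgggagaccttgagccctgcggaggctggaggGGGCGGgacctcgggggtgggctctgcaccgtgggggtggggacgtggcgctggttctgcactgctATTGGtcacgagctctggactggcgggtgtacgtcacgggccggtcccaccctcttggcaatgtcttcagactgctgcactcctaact

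Ephb4 held 4 matches to GGGCGG, Efnb2 held 3, and Epha2 and Epha4 held 1 each. At least 1 match to it is present in 32.7% of 32851 mouse promoter windows of this length. CCAAT, present in 33.8% of them, matched 2 times before Efnb2 and 1 time each before Ephb4 and Epha4. TGACGTCA occurred before Epha2 and is present in 1.55% of windows. TATAAA (12.4%) matched before Efnb2 and TGGGAA (21.6%) before Epha4. GC content was 72.0% for Efnb2, 64.0% for Ephb4, 55.6% for Epha2 and 66.0% for Epha4. Such matches describe the sequence and show no bound factor.

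**Figure D1:**
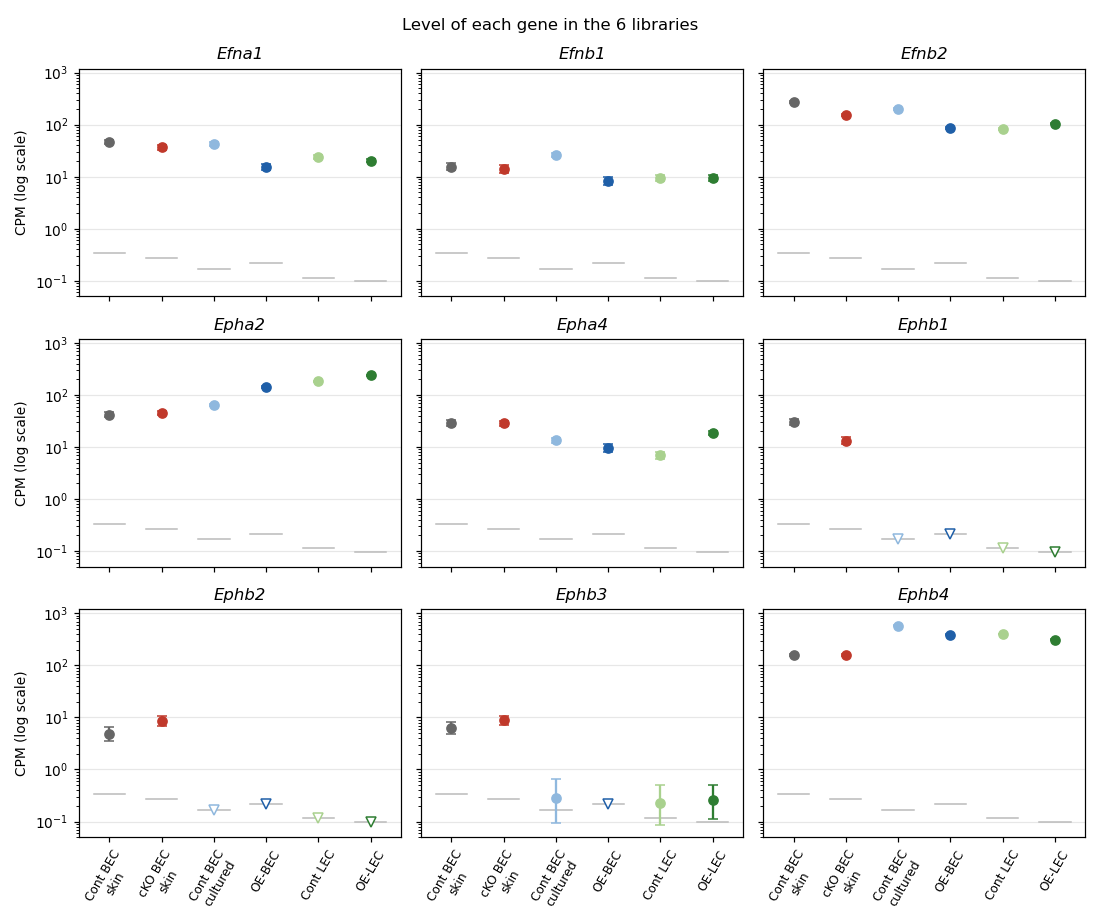
Level of each of the 9 genes (y axis, CPM on a log scale) in the 6 libraries (x axis). Points carry 95% Poisson intervals of 1 library each, grey lines mark the level of 3 reads, and open triangles mark libraries at or under 3 reads. Ephb1 and Ephb2 are at 0 reads in the 4 cultured libraries, and Ephb4 is higher in all 4 than in skin.

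Among the ligands, Efna1, the main partner of EphA2, had 47.2 CPM in skin Cont BECs, 36.6 in the cKO-labelled library, 42.4 in cultured Cont BECs and 15.65 in OE-BECs, and in the LEC line 24.2 in Cont and 20.3 in OE-LECs. Efnb1, an X-linked ephrin-B, had 15.68 CPM, 14.2, 26.1, 8.325, 9.57 and 9.51 in the same order. For both ligands OE-BECs had the lowest value of the 6 libraries. For Efnb1 the interval of OE-BECs (6.879 to 9.985 CPM) overlapped those of Cont LECs (8.42 to 10.8) and OE-LECs (8.45 to 10.7).

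Epha2, the EphA receptor studied most in angiogenesis, had 42.1 CPM in skin Cont BECs, 45.3 in the cKO-labelled library, 65.0 in cultured Cont BECs and 145 in OE-BECs, and in the LEC line 185 in Cont and 241 in OE-LECs. Its order is nearly the reverse of that of Efnb2: the LEC libraries were highest, the skin libraries lowest, and the 2 skin intervals overlapped (37.9 to 46.6 and 41.4 to 49.4). Epha4, which binds ephrins of both classes, had 28.8 CPM, 28.7, 13.5, 9.47, 6.97 and 18.6 in the same order of libraries. OE-LECs had the most Epha4 of the cultured libraries, still below both skin libraries.

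The other 3 receptors, EphB1, EphB2 and EphB3, bind ephrin-B ligands and were counted almost entirely in skin. Ephb1 had 267 reads (30.1 CPM) in skin Cont BECs, 148 reads (13.35 CPM) in the cKO-labelled library, and 0 reads in each cultured library. Ephb2 had 43 and 95 reads in skin (4.85 and 8.57 CPM) and 0 in each cultured library. Zero reads allow up to 0.170 CPM in cultured Cont BECs and 0.215 in OE-BECs, and in the LEC line 0.115 in Cont and 0.0967 in OE-LECs, which is 3 reads of each total. The upper ends of the exact Poisson intervals, which are 2-sided, are 0.209, 0.265, 0.141 and 0.119 CPM in the same order. Ephb3 had 56 and 99 reads in skin (6.32 and 8.93 CPM), 5 reads in cultured Cont BECs, 0 in OE-BECs, and in the LEC line 6 in Cont and 8 in OE-LECs. The fibroblast, pericyte and keratinocyte markers, like these receptors, were high in skin and near 0 in culture. The macrophage markers were also lower in culture, where they summed to between 36.0 and 95.95 CPM, against 3764 and 5873 in skin. The part of all these cells in the skin values of Ephb1, Ephb2 and Ephb3 was not tested. Of the exons of Ephb1 in all its transcripts, 9 overlap the span, introns included, of 9630041A04Rik (not analysed here). This is a protein-coding gene on the opposite strand, and overlap between exons of the pair was not examined. The methods name VERSE's -S option without saying whether reads were counted by strand. Where exons overlap, reads of the pair may therefore not be told apart.

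Levels of different genes were compared per length, as CPM per kb of exons. In skin Cont BECs Efnb2 led with 39.4, followed by Ephb4 (34.7), Efna1 (25.8) and Epha2 (9.004). In each of the other 5 libraries Ephb4 led, with 34.5 in the cKO-labelled library, 125 in cultured Cont BECs and 84.3 in OE-BECs, and in the LEC line 87.0 in Cont and 67.8 in OE-LECs. Of the summed level of the 6 receptors, Ephb4 made up 65.6% in skin Cont, 66.75% in the cKO-labelled library, 88.9% in cultured Cont BECs and 72.4% in OE-BECs, and in the LEC line 68.2% in Cont and 55.7% in OE-LECs. Epha2 took 9.91% in cultured Cont BECs and 26.6% in OE-BECs, and 31.1% in Cont LECs and 42.35% in OE-LECs. In both lines the receptor sum thus held a larger share of Epha2 and a smaller share of Ephb4 after overexpression.

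**Figure D2:**
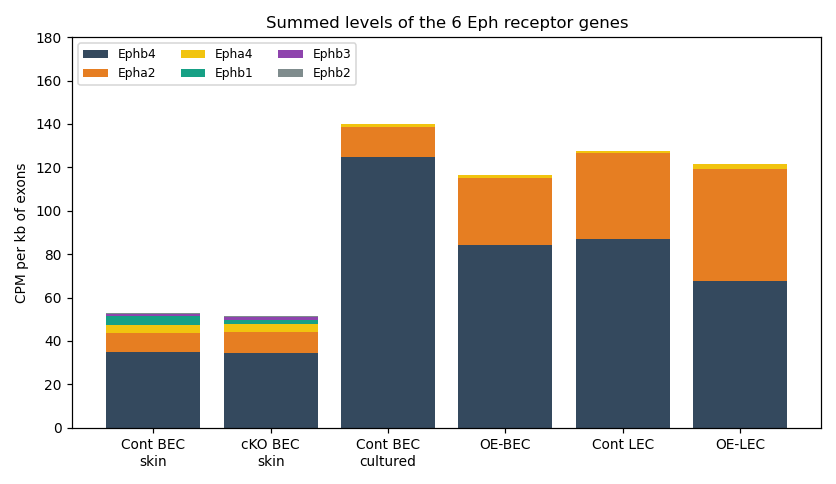
Summed level of the 6 Eph receptor genes (y axis, CPM per kb of exons) in the 6 libraries (x axis), with the receptors stacked by colour. Ephb4 (dark) and Epha2 (orange) make up nearly all of the sum in culture, and the orange share grows from 9.91% to 26.6% in BECs and from 31.1% to 42.35% in LECs.

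What Dot1l overexpression changes in BECs was examined with counts normalized on the pair of libraries by the median of ratios. Calls follow the study's rule: a normalized count of at least 3 in one library (5 in comparisons with skin), more than 3 times that of the other. In OE-BECs the ligands were lower and Epha2 was higher. Efnb1 had 462 reads in Cont and 116 in OE-BECs, 3.05-fold lower (log2 ratio -1.61, interval -1.92 to -1.31), and was called. Its fold sits just past the limit, and it was not called when libraries were scaled to total counts without the ribosomal RNA gene Rn45s, which took 5.91% of the reads of Cont and 10.9% of OE-BECs, nor when they were scaled to 12 endothelial markers (log2 ratio -0.998).

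Efna1 had 750 and 218 reads, 2.64-fold lower after activation (log2 ratio -1.40, interval -1.62 to -1.18), and was not called. Efnb2 had 3574 and 1216 reads, 2.25-fold lower (log2 ratio -1.17, interval -1.27 to -1.08). All 3 ligands were therefore lower by more than 2-fold, with counting intervals that exclude 0. Epha2 went the other way, from 1149 to 2019 reads, 2.29-fold higher (log2 ratio 1.20, interval 1.09 to 1.30).

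Ephb4 had 10223 reads in Cont and 5451 in OE-BECs, a log2 ratio of -0.52 (interval -0.57 to -0.48). Epha4 had 238 and 132 reads, a log2 ratio of -0.47 (interval -0.786 to -0.155). Ephb3 passed the rule as lower on 5 reads against 0, with an interval that reaches up to 0.51, so a difference was not detectable at this depth. Of the 9 genes, 7 were over the minimum. Of these, 2 were called lower and 0 higher, against 5.27% and 8.02% of the 14792 genes over the minimum. Of the 6 that reached 100 normalized counts in either library, 5 had an interval below 0 and 1 above 0, against 35.1% and 30.6% of 9867 genes.

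The median log2 ratio of those 6 genes was -0.85, against -0.02 over the 9867 genes. Endothelial genes were lower as well in OE-BECs: 11 of 12 endothelial markers had intervals below 0 (median log2 ratio -0.33), their summed level was 9157 CPM in Cont and 5828 in OE-BECs, and 2 of the 12 were called lower. Of 12 arterial genes, 10 had intervals below 0 and 6 were called lower. Their median was -0.89 over the 8 above 3 reads in both libraries. Of 5 venous genes 3 had intervals below 0 and 0 were called (median -0.335 over the 4 above 3 reads in both). Over all genes over the minimum 5.27% were called lower, and 35.1% of the 9867 genes had an interval below 0. The 9867 genes have at least 100 normalized counts, which was not required of these lists. Relative to the summed reads of the 12 endothelial markers, the log2 ratio was -0.56 for Efnb2, -0.79 for Efna1 and -0.998 for Efnb1. Epha2 had 1.81 and was then called higher. The ratios of Ephb4 (0.09, interval 0.04 to 0.14) and Epha4 (0.145, interval -0.17 to 0.46, which held 0) changed sign. Before this scaling they were -0.52 and -0.47, both below the median of the markers (-0.33), so the change of sign depends on taking the sum. In such bulk samples fewer cells of a type and less RNA per cell cannot be told apart.

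**Figure D3:**
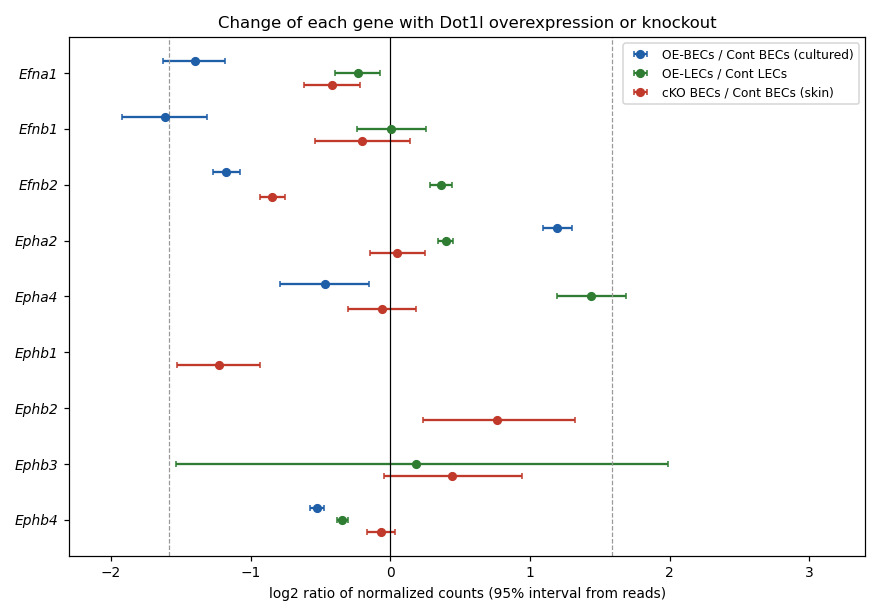
Log2 ratio of normalized counts (x axis) of each gene (y axis) for OE-BECs (blue), OE-LECs (green) and the cKO-labelled library (red) over their own controls. Bars are 95% intervals from the reads of 1 library per condition, dashed lines mark a 3-fold difference, and genes with 3 reads or fewer in a library are not drawn. Epha2 is right of 0 in both overexpressing lines, and Efnb2 and Epha4 lie on opposite sides of 0 in them. Scaled to the endothelial markers, Epha4 in OE-BECs is 0.145 with an interval that holds 0 (-0.17 to 0.46).

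After the same activation in LECs none of the 9 genes, of which 7 were over the minimum, was called. Of the 13883 genes over the minimum, 2.77% were called higher and 2.09% lower. Epha4 came nearest, with 182 reads in the control and 578 after activation, 2.71-fold higher (log2 ratio 1.44, interval 1.194 to 1.685). It passed the 3-fold limit only when the libraries were scaled to the endothelial markers, a scaling chosen after the data were examined. Efnb2 had 2156 and 3253 reads, 1.29-fold higher after normalization (log2 ratio 0.36, interval 0.28 to 0.44).

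Epha2 had 4837 and 7475 reads (log2 ratio 0.40, interval 0.345 to 0.45). Ephb4 had 10548 and 9766 reads, a log2 ratio of -0.34 (interval -0.38 to -0.30), and Efna1 had 632 and 631 reads, a log2 ratio of -0.23 (interval -0.40 to -0.07). Efnb1 did not differ beyond its interval (250 and 295 reads, log2 ratio 0.01, interval -0.24 to 0.26). Of the 6 genes with at least 100 normalized counts, 3 had an interval above 0 and 2 below 0, against 27.8% and 24.5% of 10503 genes, and their median log2 ratio was 0.185 against 0.01 over those genes. The endothelial markers summed to 7638 CPM in Cont and 6738 in OE-LECs, with 10 of 12 lower.

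Taking the lines side by side, Epha2 was higher and Ephb4 and Efna1 were lower in each of the OE lines by their intervals. Efnb2 was lower in OE-BECs and higher in OE-LECs, and so was Epha4 except under the scaling to endothelial markers. The difference between the lines was not tested, since each has 1 library per condition. In BECs the log2 ratios of Ephb4 and Epha4 changed sign under the scaling to endothelial markers, as given above, and the interval of Epha4 then held 0. In LECs the interval of Efna1 under that scaling held 0 (log2 ratio -0.07, interval -0.23 to 0.09).

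Loss of Dot1l was examined in skin. None of the 9 genes was called in the cKO-labelled library, against 5.17% of 15993 genes called higher and 2.41% called lower. Ephb1 differed most, with 267 reads in Cont and 148 in the cKO-labelled library, 2.34-fold lower (log2 ratio -1.23, interval -1.53 to -0.93). Efnb2 had 2392 and 1732 reads, 1.795-fold lower (log2 ratio -0.84, interval -0.93 to -0.75), and Efna1 had 418 and 406 reads (log2 ratio -0.42, interval -0.62 to -0.22).

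Ephb2 was higher, with 43 and 95 reads (log2 ratio 0.77, interval 0.23 to 1.32). Ephb4 had 1428 reads in Cont and 1774 reads in the other library (log2 ratio -0.065, interval -0.17 to 0.04). The intervals of Epha2 (-0.15 to 0.25), Epha4 (-0.30 to 0.18), Efnb1 (-0.54 to 0.14) and Ephb3 (-0.04 to 0.94) also held 0. Of the 7 genes with at least 100 normalized counts, 3 had an interval below 0 and 0 above 0, against 33.5% and 25.6% of 10212 genes, with a median log2 ratio of -0.20 against -0.04.

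Markers of other cells differed between the skin libraries too. In the cKO-labelled library 10 of 12 endothelial markers were lower (6766 and 4398 CPM summed, median log2 ratio -0.66), 11 of 12 macrophage markers were higher (median 0.595), and 7 of 12 keratinocyte markers were higher (267.5 and 426.5 CPM summed). Lower in it were 10 of 12 fibroblast and pericyte markers (median -0.43), 8 of 12 arterial genes (median -0.36) and 5 of 5 venous genes (median -0.88). Of 8 lymphatic markers 5 were lower and 2 higher (median -0.26 over the 7 above 3 reads in both libraries). They summed to 2821 CPM in Cont and 3275 CPM in the cKO-labelled library. Among them Prox1 had 147 and 79.7 CPM, Lyve1 1027 and 1801 CPM, and Pdpn 18.8 and 41.2 CPM. Neural crest and Schwann markers summed to 88.3 and 135 CPM. Among all genes with at least 100 normalized counts, 33.5% had an interval below 0 and 25.6% above 0. Relative to the 12 endothelial markers, Efnb2 had a log2 ratio of -0.17 (interval -0.26 to -0.08) and Ephb1 of -0.55 (interval -0.85 to -0.26), while Efna1 (0.26), Efnb1 (0.47), Epha4 (0.62) and Ephb4 (0.61) changed sign. Under that scaling Epha2 (0.73, interval 0.53 to 0.92), Ephb2 (1.44, interval 0.91 to 1.997) and Ephb3 (1.12, interval 0.63 to 1.62) were higher, with intervals above 0. The part of the cell mixture in the values of these genes was not tested.

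Ratios between genes of the same library do not depend on how libraries are scaled, so the receptor-ligand pairs were compared in this way. The ratio of Efnb2 to Ephb4 per kb was 1.13 in skin Cont BECs, 0.661 in the cKO-labelled library, 0.237 in cultured Cont BECs and 0.151 in OE-BECs, and in the LEC line 0.138 in Cont and 0.2255 in OE-LECs. The ligand exceeded the receptor only in skin Cont BECs, and the cultured libraries lay at or below 0.237. These values depend on the length used. With the longest transcript the ratio was 1.52 in skin Cont BECs, 0.884 in the cKO-labelled library and 0.317 in cultured Cont BECs. The ratio was 1.57-fold lower in OE-BECs than in its control (log2 change -0.65, interval -0.755 to -0.542), 1.63-fold higher in OE-LECs (log2 change 0.705, interval 0.62 to 0.79) and 1.72-fold lower in the cKO-labelled library (log2 change -0.78, interval -0.915 to -0.643).

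A pair of further ratios was added after the values had been seen. Efna1 to Epha2 per kb was 2.86 in skin Cont, 2.07 in the cKO-labelled library, 1.67 in cultured Cont BECs and 0.276 in OE-BECs, and in the LEC line 0.334 in Cont and 0.216 in OE-LECs. It was lower in OE-BECs by 6.04-fold (log2 change -2.595, interval -2.84 to -2.35), in OE-LECs by 1.55-fold (log2 change -0.63, interval -0.80 to -0.46) and in the cKO-labelled library by 1.39-fold (log2 change -0.47, interval -0.75 to -0.19). Epha2 to Ephb4 per kb was 0.259, 0.281, 0.112, 0.368, 0.455 and 0.760 in the same order of libraries. Its log2 change was 1.72 in OE-BECs (interval 1.605 to 1.837), 0.74 in OE-LECs (interval 0.673 to 0.805) and 0.115 in the cKO-labelled library (interval -0.11 to 0.34), where the interval held 0.

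**Figure D4:**
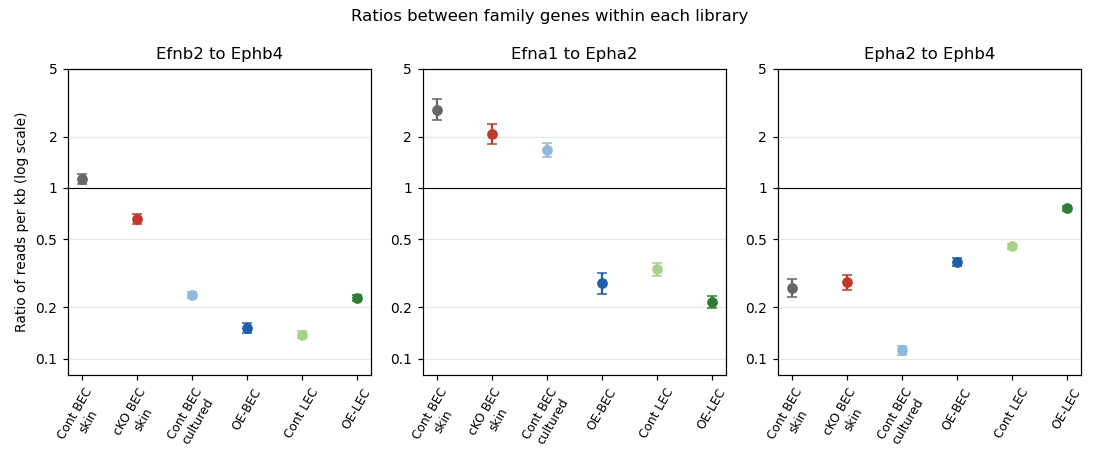
Ratio of reads per kb of exons (y axis, log scale) for Efnb2 to Ephb4, Efna1 to Epha2 and Epha2 to Ephb4 in the 6 libraries (x axis), with 95% intervals from the reads of 1 library each. Efnb2 to Ephb4 is above 1 only in skin Cont BECs, at 1.13, and Efna1 to Epha2 is 1.67 in cultured Cont BECs and 0.276 in OE-BECs.

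The study did not compare its control libraries with each other, and the values here describe levels. They use the same control libraries as the comparisons above. Between those of the lines, none of the 9 genes, of which 7 were over the minimum, was called. Of the 14419 genes over the minimum, 4.12% were called higher and 13.1% lower in LECs. The largest differences were those of Efnb1 (2.93-fold lower in Cont LECs, log2 ratio -1.55, interval -1.78 to -1.33), Epha2 (2.65-fold higher, log2 ratio 1.41, interval 1.314 to 1.501) and Efnb2 (2.63-fold lower, log2 ratio -1.40, interval -1.47 to -1.32). Between cultured and skin Cont BECs 1 of the 9 genes was called higher in culture and 3 lower, against 10.8% and 25.8% of 16002 genes, so these counts are near the share over all genes. Ephb4 was 4.24-fold higher in culture (log2 ratio 2.08, interval 2.003 to 2.164), Ephb3 was 18.9-fold lower, Ephb1 at least 121.5-fold lower and Ephb2 at least 18.87-fold lower. The culture, the tissue of origin and the mixture of cells cannot be told apart here.

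Of the 13 other ephrin and Eph receptor genes, 12 were above 3 reads in at least 1 skin library and 6 in cultured Cont BECs. Of the 13, 1 was called lower in OE-BECs (Epha7, 17 and 3 reads), 1 lower in OE-LECs (Efna2, 4 and 1 reads) and 1 higher in the cKO-labelled library (Epha8, 0 and 6 reads), all on few reads. The shares of all genes over the minimum called in these directions were 5.27%, 2.09% and 5.17%. Epha1, a receptor of the A class, had 198 reads in skin Cont BECs, 298 in the cKO-labelled library, 177 in cultured Cont BECs, 137 in OE-BECs, and in the LEC line 11 in Cont and 8 in OE-LECs. Between the control libraries it was 25.5-fold lower in LECs (log2 ratio -4.67, interval -5.70 to -3.80).

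A list of 30 adaptors, kinases, exchange factors and proteases that act with these receptors was counted in the same way. In OE-BECs 1 of the 30 was called higher (Grip1, a PDZ protein that binds ephrin-B tails, 3 and 12 reads) and 0 lower. In OE-LECs and in the cKO-labelled library 0 were called. Over all genes, 8.02% were called higher and 5.27% lower in OE-BECs, 2.77% and 2.09% in OE-LECs, and 5.17% and 2.41% in the cKO-labelled library. The median log2 ratio of members above 3 reads in both libraries was -0.03, -0.04 and -0.13 in these comparisons. Between the control libraries of the lines, 0 of the 30 were called higher in LECs and 4 lower, against 4.12% and 13.1% of all genes. Of these, Chn2 (59.3 and 13.1 CPM in BECs and LECs), a Rac-directed GTPase-activating protein, and Kalrn (99.2 and 33.0 CPM) had at least 100 normalized counts. Between skin and cultured Cont BECs, 2 of the 30 were called higher in culture and 7 lower, against the 10.8% and 25.8% of all genes given above. Of those with at least 100 normalized counts, Src (18.6 and 108.5 CPM), a tyrosine kinase, and Chn1 (34.5 and 132 CPM) were called higher in culture, and Nck2, Rasa1, Dab2, Tiam1 and Ptpn13 were called lower. Of these, Tiam1 had 377 and 0 reads and Ptpn13 437 and 1 reads.

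Over the 6 libraries the genes most like Efnb2, by Pearson correlation of log2(CPM + 1) among 11898 genes, were Kctd12b (r = 0.99), Mfap1b (r = 0.9852) and Btg2 (r = 0.97). Those most like Ephb4 were Osbpl7 (r = 0.99), Lcn2 (r = 0.99) and Adamts5 (r = 0.99). The 6 points share 3 sources of cells, and the skin libraries weigh on each correlation. These are the 3 highest values picked for each gene from 11898. How often unrelated genes reach such values on 6 points was not tested.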

How the data were processed

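The authors used the ScriptSeq v2 kit, trimmed reads with skewer, aligned them to mm10 with STAR and counted with VERSE. They deposited raw counts per gene symbol. Totals were 8863349 to 31032461 over the 6 libraries, which sets the precision of each value. The annotation used for counting is not given in the sources used here. Positions and exon lengths came from GENCODE M21 (GRCm38, the same assembly as mm10) and promoters from RefSeq.

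Size factors were the median of ratios of DESeq2 1.42.0 in R 4.3.3 on each pair of libraries. Log2 ratios carry exact (Clopper-Pearson) 95% intervals from the reads, changes of a ratio conditional exact intervals, and single levels exact Poisson intervals. A library with 3 reads or fewer of a gene was at the floor, and a fold against it is a lower bound. Other scalings (edgeR 4.0.16 TMM, total counts with and without Rn45s, factors from all 6 libraries or from genes with at least 10 reads), minimums, a pseudocount of 1 and a fold of 2 were tried. No p-value was computed, since each condition has 1 library. Steps were tested on simulated data. Python 3.11.15, numpy 2.4.6, scipy 1.17.1 and pandas 2.3.3 were used.

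The members and lists were chosen with earlier results of these data known. Named were all 9 members, and of the other family genes and partners those called with at least 100 normalized counts, with any count of 5 or fewer named after its values were seen. For Efnb2 and Ephb4, the 3 most alike genes with at least 100 reads in a library were named.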

Additional observations from a re-analysis of the deposited data

Results flagged for a closer look

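Dot1l overexpression went with opposite directions in the BEC and LEC lines for 3 values, each with a counting interval that excludes 0 in both lines. The log2 ratio of Efnb2 was -1.17 in OE-BECs and 0.36 in OE-LECs, a difference of -1.535. That of Epha4 was -0.47 and 1.44, a difference of -1.904. In BECs it was 0.145 under the scaling to 12 endothelial markers, with an interval that held 0 (-0.17 to 0.46). The log2 change of the Efnb2 to Ephb4 ratio was -0.65 and 0.705, a difference of -1.353. The differences between the lines were not tested, since each has 1 library per condition.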

How the results depend on the processing

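No paired analysis was possible because each condition has 1 library, and no replicate could be left out. Of the 9 genes, the number called in OE-BECs was 2, and it was 1 with total counts without Rn45s (Ephb3), 1 with a minimum of 20 (Efnb1) and 5 with a fold of more than 2 (Efna1, Efnb1, Efnb2, Epha2 and Ephb3). Scaled to the endothelial markers it was again 2, but with Epha2 (higher) in place of Efnb1. In OE-LECs it was 0, and 1 (Epha4) with a fold of more than 2 or scaled to the endothelial markers. In the cKO-labelled library it was 0, and 1 (Ephb1) with a fold of more than 2. Between Cont LECs and cultured Cont BECs it was 0, and 1 (Efnb1) with size factors from genes with at least 10 reads and 4 with a fold of more than 2. The other scalings moved log2 ratios by at most 0.055 in the comparisons with Dot1l changed, and by up to -0.24 (total counts) between cultured and skin Cont BECs, where the log2 ratio of Efna1 turned from 0.09 to -0.15. Under the scaling to endothelial markers, chosen after seeing the data, 6 log2 ratios changed sign, as given with the comparisons. The log2 changes of the ratios between genes stayed within their intervals with a pseudocount of 1. With the length of the longest transcript in place of all exons, neighbours in the order of levels traded places in 4 libraries: Efnb2 and Efna1 in Cont LECs, Efnb1 and Ephb1 in skin Cont BECs, and Efnb1 and Epha4 in OE-LECs and in the cKO-labelled library.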
